A study of Mus musculus with 4 samples.

Results

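Tubulin is the building block of microtubules, and each block is a pair of 1 alpha and 1 beta protein. Mammals carry several genes for each, called isotypes, and 10 of them are described here: the alpha genes Tuba1a, Tuba1b, Tuba1c and Tuba4a and the beta genes Tubb2a, Tubb2b, Tubb3, Tubb4b, Tubb5 and Tubb6. They were picked by name from a table of 24341 genes, and all 10 were present in it. Transcripts were sequenced from CAD (Cath.-a-differentiated) cells, a line of mouse catecholaminergic cells that grows neurite-like processes once serum is removed. All cultures went without serum for 5 days, and for 24 h they received either the solvent DMSO or an inhibitor of the acetyl-CoA synthetase ACSS2 (ACSS2i) at 20 µM. Each group had 2 libraries from this 1 cell line, and no label states that each library was a culture of its own. The p-values therefore rest on differences between sequenced libraries, and part of these may be technical. The inhibitor is a urea-substituted quinoxaline with thiophene groups, per the labels, and the comparison asks how transcript levels differ when the enzyme that makes acetyl-CoA from acetate is inhibited.

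As background, isotypes of a family differ little over most of their length and most in the acidic tail at the end of the protein, which lies on the outer face of the microtubule. Enzymes add chains of glutamate to this tail and remove or restore the last tyrosine of most alpha tubulins, and motors and microtubule-associated proteins read these marks. Tubb3 is the classical marker of neurons, Tubb2a, Tubb2b and Tuba1a are abundant in developing and mature brain, and Tuba1b, Tuba1c, Tubb4b, Tubb5 and Tubb6 are made in many dividing and resting cell types. Tuba4a is broadly expressed and was put in neither class. Tubulin messages are also known to regulate themselves: when free tubulin pairs accumulate, ribosomes making new tubulin are recognised by the start of the nascent chain through TTC5, and the message is degraded.

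The coding ends show how the isotypes differ where their tails are encoded. The last 60 coding bases before the stop codon are given for 6 isotypes, from GENCODE M21 (GRCm38), with the codons GAA and GAG, which encode glutamate, in capitals.
Tuba4a: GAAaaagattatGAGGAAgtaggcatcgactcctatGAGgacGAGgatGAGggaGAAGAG
Tubb2a: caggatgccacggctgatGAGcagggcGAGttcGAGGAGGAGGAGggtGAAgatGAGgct
Tubb2b: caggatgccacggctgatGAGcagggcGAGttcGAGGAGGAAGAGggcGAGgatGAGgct
Tubb3: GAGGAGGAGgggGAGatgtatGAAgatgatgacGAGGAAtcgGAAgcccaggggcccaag
Tubb4b: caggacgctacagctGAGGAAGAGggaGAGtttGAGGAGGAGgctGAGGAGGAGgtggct
Tubb5: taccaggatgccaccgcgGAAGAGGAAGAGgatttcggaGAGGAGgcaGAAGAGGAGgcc

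Glutamate codons made up 8 of the last 20 codons in Tuba4a, Tubb2a, Tubb2b and Tubb3, 9 in Tubb5 and 10 in Tubb4b. Tuba4a ended in a glutamate codon (GAG). Tubb3 ended in a lysine codon (aag), unlike the other beta isotypes shown, which ended in gct or gcc, codons for alanine.

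Tuba1a (chr15:98949837-98953703, minus strand), Tuba1b (chr15:98931425-98934565, minus strand) and Tuba1c (chr15:99029891-99038110, plus strand) are neighbours in GRCm38, the build called mm10. Their coding sequences were 97.1% to 98.3% identical. Tubb2a (chr13:34074274-34078007, minus strand) and Tubb2b (chr13:34126748-34130466, minus strand) form another pair of neighbours, with 96.5% identical coding sequences. The other members lie singly: Tuba4a at chr1:75214228-75219865 (minus strand), Tubb3 at chr8:123411424-123422015 (plus strand), Tubb4b at chr2:25222160-25224702 (minus strand), Tubb5 at chr17:35833921-35838306 (minus strand), and Tubb6 on chromosome 18. Among beta isotypes other than that pair, coding identity was between 80.4% and 85.9%.

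**Figure D1:**
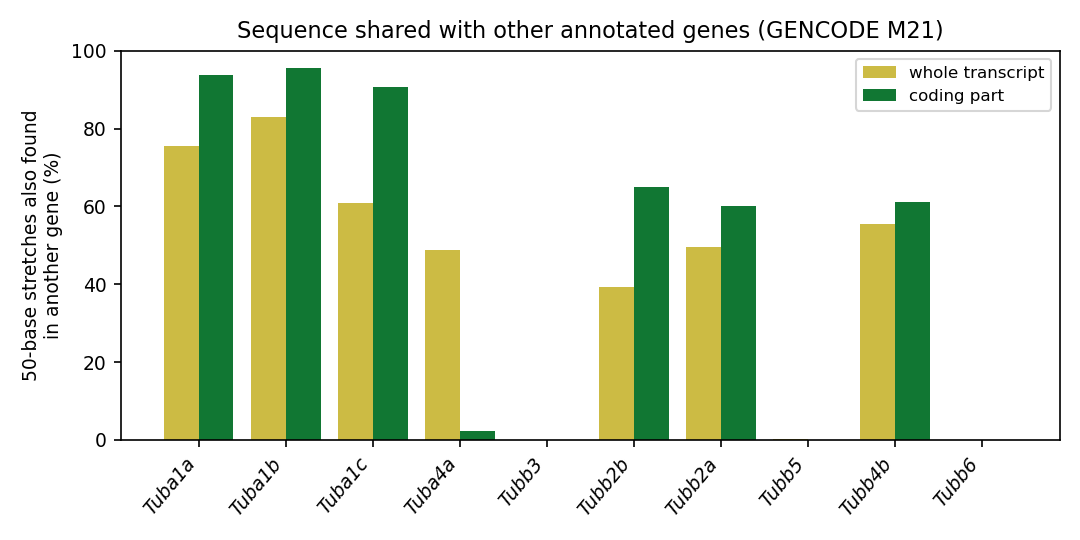
Bars give the percentage of all 50-base stretches of each isotype's transcript (yellow) or its coding part (green) that occur letter for letter in a transcript of another GENCODE M21 gene, pseudogenes included. Tuba1a, Tuba1b and Tuba1c have the highest coding bars (90.6% to 95.6%), while Tubb3 and Tubb6 have none and Tubb5 has 0.115% over the whole transcript.

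This likeness bears on the values of most of the isotypes, since a read that fits several genes must be split or dropped by the counting software. Of the 50-base stretches of Tuba1a, 75.5% also occurred in another gene, and the shares were 83.1% for Tuba1b and 61.0% for Tuba1c. Tubb2a and Tubb2b had 49.6% and 39.3%, mostly in each other, and Tubb4b had 55.5%, mostly in the pseudogene Tubb4b-ps1. For Tuba4a the 48.8% came almost wholly from the overlapping gene Stk16, and its coding part had 2.39%. Tubb3, Tubb5 and Tubb6 had 0%, 0.115% and 0%, so their values are those least open to such splitting. The levels of the other 7 are uncertain to the extent that the authors' counting, whose handling of such reads is not given in the sources used here, moved reads between copies.

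The libraries differed in depth. Read from the spacing of the lowest values, the depths of DMSO replicate 2, ACSS2i replicate 1 and ACSS2i replicate 2 were 0.292, 0.675 and 0.857 of that of DMSO replicate 1. Of 8 neuronal markers, 7 had a mean of at least 1 FPKM (fragments mapped to a gene, divided by its transcript length and the mapped total, so that levels of genes can be compared), the exception being the neurofilament gene Nefl. Of 7 catecholaminergic markers 6 did, with Dbh below. Among markers of other cell types, 1 of 4 astrocyte genes (Aldoc) reached that level, and 0 of 4 fibroblast, 0 of 3 endothelial and 0 of 3 leukocyte genes did. Neuronal markers summed to 814 and 815 FPKM in the DMSO libraries, 508 in ACSS2i replicate 1 and 976 in ACSS2i replicate 2. Catecholaminergic markers likewise summed to 388 and 407, then 218 and 492 FPKM. The inhibitor libraries thus lay on opposite sides of the DMSO libraries in both sums, to which abundant genes such as Gap43 and Hand2 add most. Single markers differed: Syn1 and Th were lower in ACSS2i replicate 2 than in replicate 1, and Syp was below DMSO in both.

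Without inhibitor, Tubb5 was the most abundant of the 10 isotypes, at 174 and 189 FPKM in DMSO replicates 1 and 2. Neuronal Tubb3 followed with 99.0 and 134 FPKM. Tubb3 lay above Tubb4b, at 86.7 and 81.2 FPKM, without overlap. Tubb2b, at 69.9 and 112 FPKM, overlapped with both, so its place beside them was not set beyond its spread. Tuba1a, the leading alpha gene, had 65.2 and 69.2 FPKM and stood apart from its neighbours in the order.

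The next 3 isotypes, Tubb2a, Tuba1b and Tubb6, overlapped with one another. Tubb2a had 15.6 and 36.6 FPKM, Tuba1b 19.9 and 18.1 FPKM, and Tubb6 9.28 and 20.2 FPKM. Tuba1c, at 5.42 and 5.38 FPKM, and Tuba4a, at 0.816 and 1.77 FPKM, each lay below all others without overlap. By mean level over the 4 libraries Tubb5 ranked 242 among all genes of the table, Tubb3 440 and Tubb2b 521, while Tuba4a ranked 11187. With the inhibitor Tubb5 again led without overlap and Tuba1c and Tuba4a again came last, but each neighbouring pair from Tubb3 down to Tubb6 overlapped. In the untreated cells the general Tubb5 thus led, and the neuronal Tubb3 lay above the general Tubb4b. The place of the neuronal Tubb2b beside Tubb3 and Tubb4b was not set beyond its spread.

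**Figure D2:**
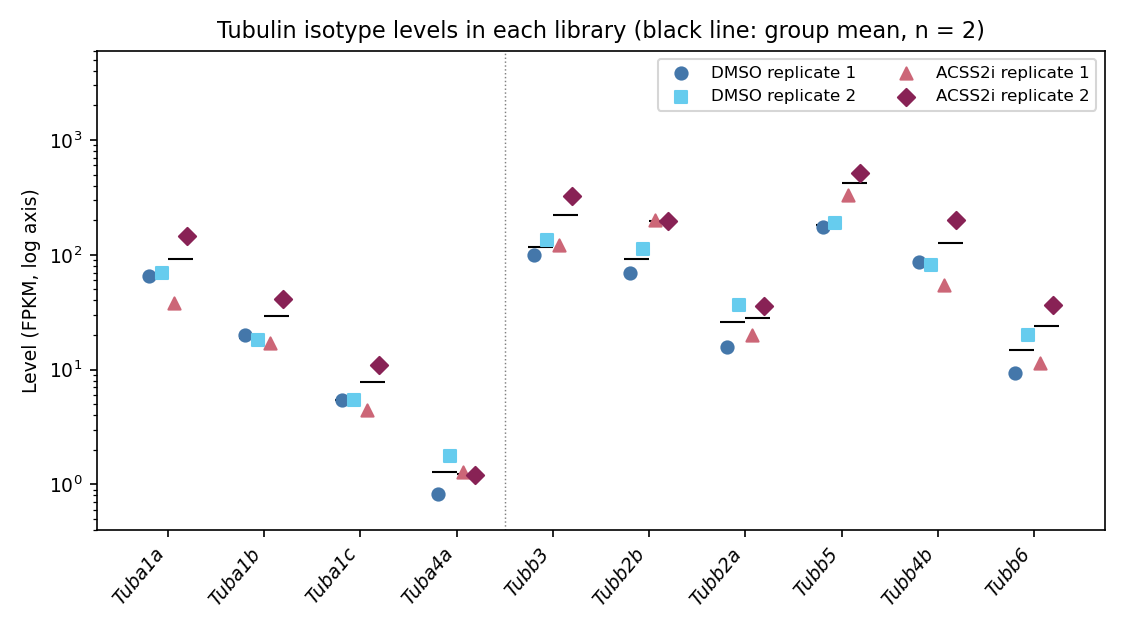
Each point is the level of an isotype in 1 library, in FPKM on a log axis, and black lines are group means (n = 2). Alpha genes are left of the dotted line and beta genes right of it; Tubb2b and Tubb5 have both ACSS2i points above both DMSO points, and in 6 of the other isotypes ACSS2i replicate 2 lies above, and ACSS2i replicate 1 within or below, the DMSO values.

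With the inhibitor, 2 isotypes had higher values in both ACSS2i libraries than in both DMSO libraries: Tubb5, a general isotype, and Tubb2b, a neuronal one. Tubb5 stood at 333 and 518 FPKM in ACSS2i replicates 1 and 2, against 174 and 189 in DMSO, a ratio of group means of 2.35. Tubb2b stood at 201 and 195 FPKM, against 69.9 and 112, a ratio of 2.17. For Tubb5 the DMSO libraries were 1.09 times apart and the ACSS2i libraries 1.56 times. For Tubb2b the DMSO libraries were 1.61 times apart and the ACSS2i libraries 1.03 times.

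The log2 fold change, taken on log2(FPKM + 1), was 1.19 ± 0.31 (SE) for Tubb5 and 1.15 ± 0.31 (SE) for Tubb2b. Their unadjusted p in limma's moderated test was 0.00904 and 0.00957, and the adjusted p over the 11486 genes tested was 0.507 for both. None of the 10 isotypes passed an adjusted p of 0.05, where 0.0261% of all tested genes did. At an unadjusted p under 0.05, 2 of the 10 were higher and 0 lower, beside 3.29% and 3.67% of all tested genes. Groups without overlap were found higher in 2 of the 10 isotypes and lower in 0, beside 19.0% and 18.3% of all tested genes. By this count, unlike the count by unadjusted p, the share of isotypes was near the background.

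Without DMSO replicate 1 neither had an unadjusted p under 0.05, with log2 fold changes of 1.13 for Tubb5 (unadjusted p = 0.0679 by limma) and 0.81 for Tubb2b (0.109). Without DMSO replicate 2, Tubb5 had an unadjusted p of 0.0501 by limma and a log2 fold change of 1.25. Tubb2b shares 33.4% of its 50-base stretches with Tubb2a, and Tubb2a did not follow it: Tubb2a had 15.6 and 36.6 FPKM without and 19.9 and 35.8 FPKM with the inhibitor. The ratio of Tubb2b to Tubb2a was 4.48 and 3.07 in DMSO and 10.1 and 5.45 with the inhibitor, without overlap. Of all tested genes, 19.0% were higher and 18.3% lower without overlap. Reads that fit both genes may have been moved between them, and their part in this ratio was not tested.

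Tubb3, the neuronal marker, had 99.0 and 134 FPKM without and 121 and 323 FPKM with the inhibitor. ACSS2i replicate 1 lay between the DMSO libraries and ACSS2i replicate 2 far above them. The log2 fold change was 0.78 ± 0.49 (SE; limma adjusted p = 0.808), and it was 0.075 without ACSS2i replicate 2 and 1.48 without ACSS2i replicate 1.

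Tubb4b had 86.7 and 81.2 FPKM without and 54.5 and 199 FPKM with the inhibitor. Tuba1a had 65.2 and 69.2 FPKM without and 38.0 and 145 FPKM with the inhibitor. In both genes the DMSO libraries lay close together, and the ACSS2i libraries lay on either side of them, 3.66 times apart for Tubb4b and 3.80 times for Tuba1a. The ratio of Tubb4b to Tuba1a, a pair chosen after their values were seen, was 1.33 and 1.17 in DMSO and 1.43 and 1.38 in ACSS2i, without overlap. Their log2 fold changes of 0.31 ± 0.58 and 0.15 ± 0.59 (SE; limma adjusted p = 0.946 and 0.979) had errors larger than the differences.

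The other alpha genes made the same split. Tuba1b had 19.9 and 18.1 FPKM without and 17.1 and 41.3 FPKM with the inhibitor. Tuba1c had 5.42 and 5.38 FPKM without and 4.45 and 11.0 FPKM with the inhibitor. The ratio of Tuba1b to Tuba1c was 3.67 and 3.36 in DMSO and 3.84 and 3.76 in ACSS2i, without overlap. Tuba1b and Tuba1c are the members with the most 50-base stretches in common. The log2 fold changes of Tuba1b and Tuba1c were 0.47 and 0.34 (limma adjusted p = 0.853 and 0.906). Tuba4a, the least abundant, did not split: it had 1.27 and 1.20 FPKM in ACSS2i, between the 0.816 and 1.77 FPKM of DMSO.

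Tubb6, with 9.28 and 20.2 FPKM without and 11.5 and 36.6 FPKM with the inhibitor, was spread widely in both groups, as was Tubb2a. Their log2 fold changes were 0.55 ± 0.59 and 0.15 ± 0.47 (SE; limma adjusted p = 0.890 and 0.972). In DMSO both were over 2 times higher in replicate 2, the shallowest library, by factors of 2.17 and 2.34.

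**Figure D3:**
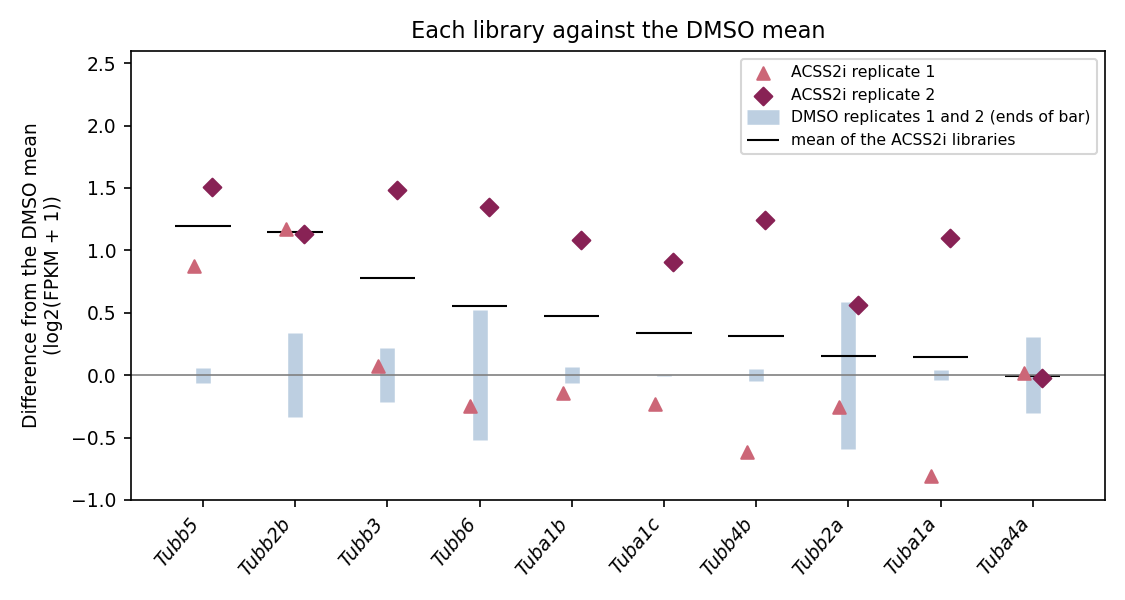
Triangles and diamonds give ACSS2i replicates 1 and 2 as differences from the DMSO mean on log2(FPKM + 1), black lines their mean, and the ends of each blue bar the DMSO libraries. Isotypes are ordered by log2 fold change, from 1.19 (Tubb5) to -0.0030 (Tuba4a); in 6 of them the triangle lies below 0 and the diamond above.

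The inhibitor libraries therefore disagreed over most of the family. Against the DMSO mean, 4 of the 10 isotypes were higher in ACSS2i replicate 1 (median difference -0.19 on the log2 scale) and 9 of the 10 in ACSS2i replicate 2 (median 1.11). Over all tested genes the medians were 0.0095 and 0.013. Of the 10, 9 had a positive log2 fold change and the median was 0.40, against 52.2% and 0.020 over all tested genes.

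The gap between ACSS2i replicates 2 and 1 was above 1 on the log2 scale in 6 of the 10 isotypes and in 6.19% of all tested genes. For Tuba1a it was 1.90, and 1.61% of tested genes had a larger gap in either direction. For Tubb4b it was 1.85 and for Tubb6 1.59, with 1.74% and 2.79% of genes beyond them. Tubb2b and Tuba4a were the exceptions, with gaps of -0.042 and -0.045. In the DMSO pair 2 of the 10 isotypes, Tubb2a (1.18) and Tubb6 (1.04), had a gap above 1, beside 1.24% of all tested genes.

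**Figure D4:**
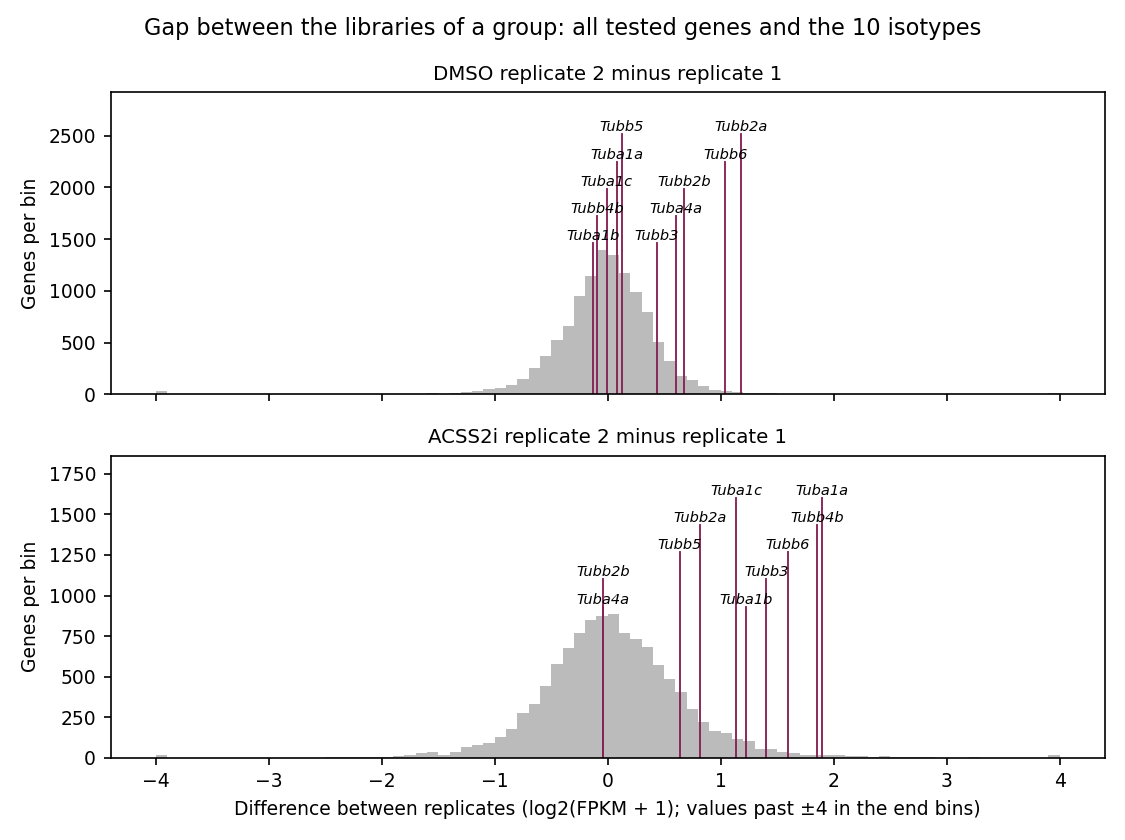
Grey bars count all 11486 tested genes by the difference between the libraries of a group on log2(FPKM + 1), above for DMSO and below for ACSS2i, and red lines mark the 10 isotypes. In the DMSO pair 8 isotypes lie between -0.13 and 0.68; in the ACSS2i pair 8 lie at 0.64 or more, in the right flank of the distribution.

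Each fit without 1 inhibitor library gave a different account. Without ACSS2i replicate 1, 8 of the 10 isotypes had an unadjusted p under 0.05 in limma, all 8 higher, where 8.57% of all tested genes were higher and 6.24% lower. Without ACSS2i replicate 2, 2 were higher (Tubb2b and Tubb5) and 2 lower (Tuba1a, at -0.80, and Tubb4b, at -0.61), where 5.61% of genes were higher and 7.75% lower. In both fits 0 of the 10 passed after adjustment, and the lone inhibitor library was assumed to vary like the DMSO pair. The neuronal and catecholaminergic marker sums, given above, lay on the same sides of DMSO in these libraries, and their part in the tubulin values was not tested. In such bulk samples fewer cells of a kind and less RNA per cell cannot be told apart.

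Neuronal and general isotypes did not separate. The 4 neuronal isotypes had a median log2 fold change of 0.46 and the 5 general ones 0.47, a difference of -0.0059, where the SD of this difference between libraries of a group was 0.31. In ACSS2i replicate 1 the class medians were -0.090 and -0.23, and in ACSS2i replicate 2 they were 1.11 and 1.24. Each class held 1 isotype with groups that did not overlap, Tubb2b and Tubb5. With Tubb2a counted as general the difference was 0.37, and it was 0.46 without DMSO replicate 2. The size of any class difference was thus not settled by these libraries.

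As a share of the summed beta members, neuronal Tubb2a, Tubb2b and Tubb3 made up 40.6% and 49.4% without inhibitor and 46.2% and 42.4% with it. The means were 45.0% ± 6.16 and 44.3% ± 2.71 (SD, n = 2 each), and the groups overlapped. Within that share the makeup differed between the inhibitor libraries: Tubb2b was 27.1% of the beta pool in ACSS2i replicate 1 and 14.9% in replicate 2, while Tubb3 was 16.4% and 24.7%. In DMSO Tubb2b made up 15.4% and 19.6% and Tubb3 21.8% and 23.4%.

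Among general beta isotypes, Tubb5 took 38.2% and 33.0% of the beta pool in DMSO and 44.9% and 39.6% in ACSS2i. The ACSS2i shares were higher without overlap. Tubb4b took 19.1% and 14.2% in DMSO and 7.35% and 15.2% in ACSS2i, with overlap. Tubb2a was lower without overlap, at 3.43% and 6.38% in DMSO and 2.69% and 2.74% in ACSS2i. The shares of Tubb2b, Tubb3, Tubb4b and Tubb6 overlapped between groups. All these shares are given as a description with no test. Of all tested genes, 19.0% were higher and 18.3% lower without overlap, so groups of 2 libraries often do not overlap.

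In the alpha pool Tuba1a made up 71.4% and 73.3% in DMSO and 62.5% and 73.0% in ACSS2i, and the groups overlapped. Tuba1b and Tuba1c together made up 27.7% and 24.8% in DMSO and 35.4% and 26.4% in ACSS2i. As a share of every alpha tubulin in the table, Tuba8 included, Tuba1a made up 57.5% and 60.6% in DMSO and 50.4% and 51.0% in ACSS2i, lower without overlap.

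**Figure D5:**
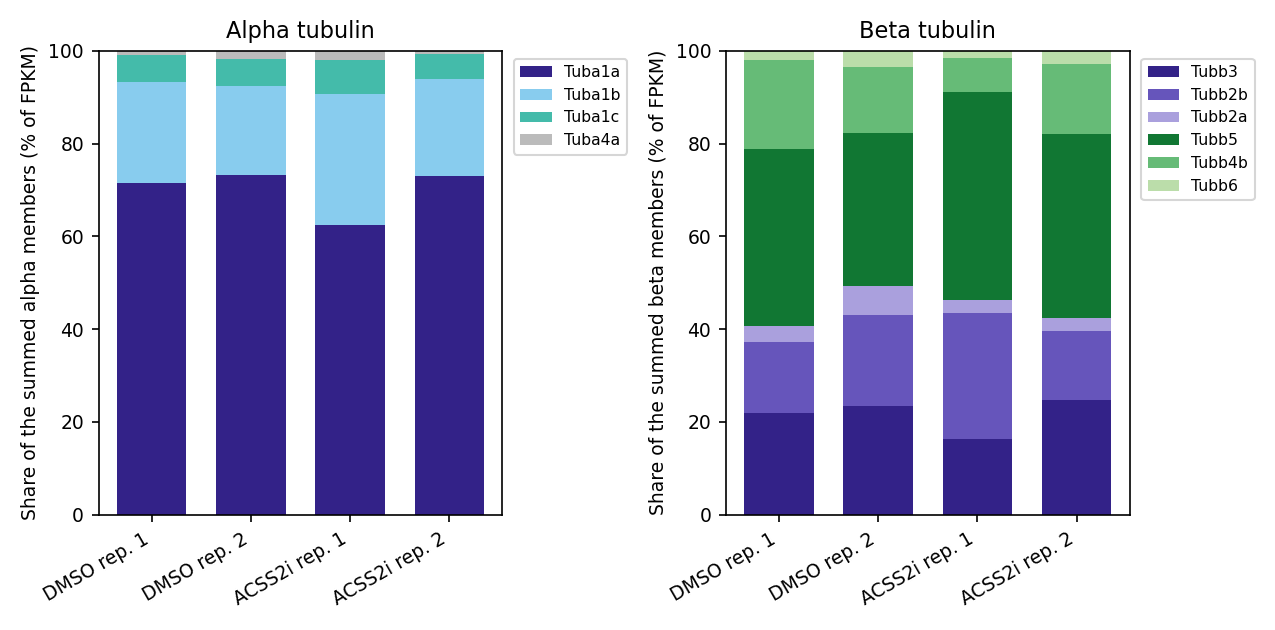
Stacked bars give each isotype's share of the summed alpha members (left) or beta members (right) in each library, in percent of summed FPKM. Purple beta shades (Tubb3, Tubb2b and Tubb2a) together reach between 40.6% and 49.4% in all 4 libraries, and ACSS2i replicate 1 has the smallest Tuba1a share, 62.5%.

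Summed over members, beta tubulin was higher in both ACSS2i libraries, at 741 and 1308 FPKM against 454 and 573 FPKM in DMSO. Alpha tubulin overlapped between groups, at 60.8 and 198 FPKM in ACSS2i and 91.3 and 94.4 FPKM in DMSO. Per transcript length the alpha members thus amounted to 0.201 and 0.165 of the beta members in DMSO and to 0.0821 and 0.151 in ACSS2i. These ratios did not overlap, but with every alpha and beta tubulin of the table they did, at 0.250 and 0.199 in DMSO and 0.102 and 0.217 in ACSS2i. Of the 10 members, Tuba1a, Tuba1b and Tuba1c had the largest shares of 50-base stretches found in other genes, and the part of this in the low alpha sums was not tested. All 10 members together made up 0.0924% and 0.113% of the summed FPKM in DMSO and 0.144% and 0.223% in ACSS2i.

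Nearly all alpha tubulin outside the 10 came from 1 gene, Tuba8. It had 22.0 and 19.8 FPKM without and 14.6 and 85.3 FPKM with the inhibitor, a level above Tuba1b in DMSO replicates 1 and 2 and in ACSS2i replicate 2. Its ACSS2i libraries were 5.85 times apart, with replicate 1 below DMSO and replicate 2 above, the same split as Tuba1a and Tubb4b. Its log2 fold change was 0.75 ± 0.75 (SE; limma adjusted p = 0.877). The beta gene Tubb4a, of myelinating glia and neurons, was below the filter in mean level, at 0.157 and 0.404 FPKM without and 0.116 and 0.320 FPKM with the inhibitor.

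Of the 10 other tubulin genes, 5 were tested. Of these 4 had a positive log2 fold change, beside 52.2% of all tested genes, and 0 passed after adjustment (limma). Tube1, epsilon tubulin of the centrosome, had 1.31 and 1.40 FPKM without and 4.49 and 3.94 FPKM with the inhibitor, without overlap (log2 fold change 1.15, limma adjusted p = 0.484). Tubg1, the gamma tubulin that starts new microtubules, had 52.5 and 70.2 FPKM without and 62.1 and 96.0 FPKM with the inhibitor. All 10 genes of the gamma tubulin ring complex, Tubg1 included, had a positive log2 fold change, with a median of 0.19, where 52.2% of all tested genes were positive. Of the 10, 5 were higher without overlap, beside 19.0% of all tested genes. Among them Tubgcp2 had 8.30 and 8.01 FPKM without and 17.5 and 13.1 FPKM with the inhibitor (log2 fold change 0.82, limma adjusted p = 0.591), and Tubgcp5 and the anchoring factor Nedd1 had log2 fold changes of 0.27 and 0.42. None of the 10 passed after adjustment.

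Genes that fold new tubulin had a smaller median difference than the ring complex. Of the 15 cofactors and prefoldin genes 9 were positive and 6 negative, with a median log2 fold change of 0.066, and 0 passed. Without overlap 5 of the 15 were higher and 0 lower, beside 19.0% and 18.3% of all tested genes. The beta-side cofactor Tbcd had 18.3 and 17.2 FPKM without and 22.8 and 23.2 FPKM with the inhibitor, and Tbcc and Pdcl3 had log2 fold changes of 0.31 and 0.32. The 3 genes of tubulin message decay had log2 fold changes of 0.12 (Ttc5), 0.42 (Scaper) and -0.097 (Cnot11), and 0 passed. Ttc5, which recognises nascent tubulin, had 27.7 and 22.0 FPKM without and 24.7 and 29.4 FPKM with the inhibitor, with overlap.

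The 16 tested tubulin modifying enzymes include Atat1, Hdac6 and Sirt2 of alpha tubulin acetylation as well as enzymes of the tails. Of the 16, 8 were positive and 8 negative, with a median of 0.0053, and 0 passed. Without overlap 4 of the 16 were higher and 2 lower, beside 19.0% and 18.3% of all tested genes. The ligase Ttl, which restores the tyrosine at the end of most alpha tubulins, had 8.15 and 8.99 FPKM without and 10.7 and 9.58 FPKM with the inhibitor. Ttll7, which adds glutamate to beta tails such as those printed above, had 17.5 and 19.5 FPKM without and 13.9 and 12.8 FPKM with the inhibitor, lower without overlap (log2 fold change -0.44, limma adjusted p = 0.785). The polyglutamylase Ttll5 and its relative Ttll12 had log2 fold changes of 0.47 and 0.38.

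Among stathmins, which bind free tubulin, and severing enzymes, all 10 tested genes were positive, beside 52.2% of all tested genes. Their median was 0.33, and 0 passed after adjustment. Without overlap 5 of the 10 were higher and 0 lower, beside 19.0% and 18.3% of all tested genes. Stmn1 had 534 and 545 FPKM without and 537 and 829 FPKM with the inhibitor. The neuronal Stmn2 had 156 and 208 FPKM without and 139 and 291 FPKM with the inhibitor, with overlap and the same order of the ACSS2i libraries as Tubb3. Stmn3 had that order too, at 83.2 and 205 FPKM in ACSS2i. Stmn4 had the reverse order, with 53.0 and 77.2 FPKM without and 161 and 41.6 FPKM with the inhibitor. The katanin subunit gene Katna1 had 31.9 and 31.6 FPKM without and 44.1 and 51.0 FPKM with the inhibitor (log2 fold change 0.57), and Katnal2 had a log2 fold change of 0.42. Fignl1, a fidgetin relative with a role in DNA repair, had 2.25 and 5.46 FPKM without and 11.2 and 16.1 FPKM with the inhibitor (log2 fold change 1.66, limma adjusted p = 0.484).

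A list of 10 cell division genes, chosen like the other lists with earlier results of these data known, was read beside the isotypes. All 10 listed genes were higher in both ACSS2i libraries than in both DMSO libraries, beside 19.0% of all tested genes. Their median log2 fold change was 2.33, and 0 passed after adjustment. Bub1, Aurkb, Kif11, Plk1 and Ccnb1 had DMSO means of 0.104, 0.269, 0.454, 0.667 and 0.806 FPKM. They passed the filter of 1 FPKM only through their ACSS2i values, so being tested and being higher were linked for them. The count of 10 and the median are therefore not an even contrast with all tested genes or with the isotypes. Mki67, the proliferation marker, had 1.18 and 4.13 FPKM without and 22.2 and 24.9 FPKM with the inhibitor, Top2a 1.71 and 4.02 and then 19.6 and 44.4 FPKM, and the spindle motor Kif11 0.378 and 0.531 and then 4.76 and 10.8 FPKM. Mki67 and Top2a, with DMSO means of 2.66 and 2.86 FPKM, were above DMSO in both inhibitor libraries. Tubb5 and Tubb2b were so too, and Tuba1a, Tuba1b, Tuba1c and Tubb4b were not. The inhibitor libraries still differed in size. The list medians against the DMSO mean were 1.77 in ACSS2i replicate 1 and 2.92 in replicate 2. Ccnb1 had 6.07 and 28.2 FPKM in these libraries, while Mki67 had little gap. The part of the cell division genes in the tubulin values was not tested.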

How the data were processed

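Polyadenylated RNA of 4 samples, 2 per group, was made into libraries with the ScriptSeq kit, per the labels' protocols. Cufflinks 2.2.1, Cuffdiff, STAR 2.3.0, bcl2fastq 02.14.01.07 and the build mm10 are named in the submitters' processing notes. For the annotation and for reads that fit several genes, the method is not given in the sources used here. In the deposited table, each gene has 1 value per library and no unit in its header. The values were taken as FPKM, which the authors' use of Cufflinks gives per the submitters' processing notes; the table is called adjusted, and how is not stated. The lowest deposited FPKM value is 0.01, a floor. 1 gene with a failure mark was left out, which left 24340.

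Groups were compared with limma 3.58.1 (R 4.3.3; mean-variance trend, two-sided) on log2(FPKM + 1). Genes entered the fit if their mean over the libraries reached 1 FPKM, which 11486 did. Benjamini-Hochberg adjusted p under 0.05 over all of them was the threshold; all 10 members passed the filter. Relative depth was the most common ratio of values of at most 0.5 FPKM to those of DMSO replicate 1; the absolute depth is unknown, so no counting intervals are given. The 50-base stretches were matched on both strands against GENCODE M21 transcripts, using for each isotype the annotated transcript with the longest coding part. The members and lists were chosen with earlier results of these data known. All 10 members are named, and from each further list the up to 3 tested genes with the smallest unadjusted p plus Stmn1, Stmn2, Ttl, Tubg1, Tubb4a, Mki67 and Top2a. Stmn3, Stmn4, Bub1, Aurkb, Plk1 and Ccnb1 are named besides, after their values were seen. Alternatives were other pseudocounts, filters and scalings, a replicate block, other isotype classes, and leaving out each library. An oligodendrocyte marker list and some coding ends are not reported here.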

Additional observations from a re-analysis of the deposited data

How the results depend on the processing

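With 2 libraries per group, calls on single isotypes had little reach, and the number of isotypes passing an adjusted p of 0.05 was 0 in the main fit and in all 12 alternative fits (0 to 0 without 1 library each). Over all genes the same fits called 3 in the main fit, 6 and 0 with pseudocounts of 0.1 and 5, 0 with no filter, 2 among genes of mean 5 or more, 0 without short RNA genes, 8 with a replicate block and 17 to 38 without 1 library. Of the 119 log2 fold changes of single isotypes under alternatives, 108 kept their sign and 11 reversed. Leaving out 1 library at a time, the log2 fold change ran from -0.80 to 1.10 for Tuba1a, -0.14 to 1.08 for Tuba1b, -0.23 to 0.90 for Tuba1c, -0.61 to 1.24 for Tubb4b and -0.24 to 1.35 for Tubb6. In these 5 the lowest value came without ACSS2i replicate 2 and the highest without ACSS2i replicate 1. For Tubb3 it ran from 0.075 to 1.48 in the same way. It ran from -0.44 (without DMSO replicate 1) to 0.74 for Tubb2a, which was -0.26 without ACSS2i replicate 2, and from -0.31 (without DMSO replicate 1) to 0.30 (without DMSO replicate 2) for Tuba4a, which was 0.020 without ACSS2i replicate 2. Tuba4a also reversed to 0.032 with a pseudocount of 0.1 and to 0.030 under quantile normalization. Leaving out 1 library moved the difference between neuronal and general isotypes from -0.0059 to between -0.13 and 0.46; it was -0.32 with Tuba4a counted as neuronal and 0.37 with Tubb2a counted as general. Both are differences between medians of few genes. With the replicate number as a block, Tubb2b and Tubb5 had unadjusted p of 0.0142 and 0.0128 by limma and 0 isotypes passed; same-numbered libraries did not deviate together (r = -0.017 across genes), so the number was not taken as a pairing. Median-ratio scaling moved the log2 fold changes of single isotypes by less than their errors. DMSO replicate 2 was the shallowest library, at 0.292 of the depth of DMSO replicate 1.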
